A study of Saccharomyces cerevisiae with 17 samples.

Results

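The 8 genes described here make and recycle pyrimidine nucleotides in budding yeast (Saccharomyces cerevisiae): URA1, URA2, URA4, URA5, URA6 and URA7, the salvage gene FUR1 and the regulator PPR1. They were taken by systematic name from the 5326 genes of the authors' table, and all 8 have a row. The set was chosen by gene name with earlier results of the same data in view, among them the RPKM values and ratios of these genes in the 4 genotypes, so those values are descriptions and carry no test. RNA was sequenced from haploid BY4741 cells, a MATa laboratory strain, in mid-log phase in YPD, a rich glucose medium, at 30 °C. Wild type was set beside 3 mutants, namely strains with a set2 deletion or an eaf3 deletion (the set2 and eaf3 mutants below) and H3K36A, in which lysine 36 of histone H3 is replaced by alanine. Set2 is the methyltransferase of that lysine, and Eaf3 is a chromodomain protein that recognises the methylated residue. All 4 genotypes, wild type included, carry the his3-, leu2-, met15- and ura3- mutations, per the labels. By those labels every strain lacks the URA3 enzyme of the pathway, which could not be checked in the RNA values. Neither how the mutants were built nor whether the libraries of a genotype came from separate clones is stated in the labels.

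The design held 2 biological replicate libraries of rRNA-depleted total RNA per genotype. The table holds the authors' mean of each genotype in RPKM, a read count divided by the length of the gene and the size of the library, so every value below is such a mean, there is no replicate spread to set a difference against, and no difference was tested. The read depth behind the means is unknown. RPKM is a share of the RNA sequenced, not an amount per cell, and in a bulk culture fewer cells expressing a gene and less RNA per cell cannot be told apart. Genes were compared where their RPKM averaged 10 or more across genotypes, as it did for 3657 genes and for 7 of the 8 members; PPR1, with a mean of 8.75, did not. The mean includes the mutants, so low mutant values left out 555 genes with 10 or more in wild type, PPR1 among them. With a minimum of 1 the shares of genes at least 2-fold below wild type were 11.4% in the set2 mutant, 23.5% in H3K36A and 22.9% in the eaf3 mutant, higher than those printed below. Log2 ratios were taken with a pseudocount of 1. For the genes compared, the median log2 ratio of mutant to wild type stood at -0.23 in the set2 mutant, -0.32 in H3K36A and -0.36 in the eaf3 mutant, and a relative log2 is a log2 ratio minus that median. No row as used here gives URA3, LEU2, MET15, SET2, EAF3 or the H3 genes HHT1 and HHT2, so the genotypes were not checked on the altered genes. HIS3 had a row despite the his3- label, with 61.2 in wild type, 72.1 in the set2 mutant, 141 in H3K36A and 69.4 in the eaf3 mutant. The 6 MATa-specific marker genes all had a row, with a summed RPKM of 741, 828, 828 and 261 in the same order. STE2 was the largest part of each sum. In the set2 mutant and H3K36A, STE2, MFA1 and MFA2 were above wild type and STE6 and BAR1 below. AGA2 was below wild type in the set2 mutant and above it in H3K36A. All were lower in the eaf3 mutant. Of 4 MATalpha-specific genes 1 had a row, SAG1, at 11.4 to 18.4.

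Pyrimidine nucleotides are built as UMP by the de novo pathway, in which Ura2 makes carbamoyl phosphate and carbamoyl aspartate, Ura4 closes the ring, Ura1 oxidises dihydroorotate to orotate, Ura5 attaches the ribose phosphate and Ura3 removes a carboxyl group. Ura6 and Ynk1 phosphorylate UMP to UTP, and Ura7 aminates UTP to CTP. Cells without Ura3 cannot complete the de novo route and depend on uracil or uridine from the medium, which Fur4 and Fui1 import and Fur1 or Urk1 convert to UMP. Ppr1 is a zinc cluster activator that responds to intermediates of the pathway and is known to act on URA1, URA3, URA4 and URA10. Ura2 is feedback-inhibited by UTP, and its gene is not counted among the Ppr1 targets.

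The genotypes differed most in the dihydroorotate dehydrogenase gene URA1. URA1 had 6.01-fold less RNA in H3K36A than in wild type and 1.63-fold more in the eaf3 mutant. The dihydroorotase gene URA4 was 2.21-fold lower in H3K36A and 1.58-fold higher in the eaf3 mutant. URA2, at the head of the pathway, was 1.52-fold higher in the eaf3 mutant and near wild type in H3K36A. In the set2 mutant all 3 were within 1.12-fold of wild type. The other enzymes were more even, with the exception of the CTP synthase gene URA7, 1.78-fold lower in H3K36A.

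**Figure D1:**
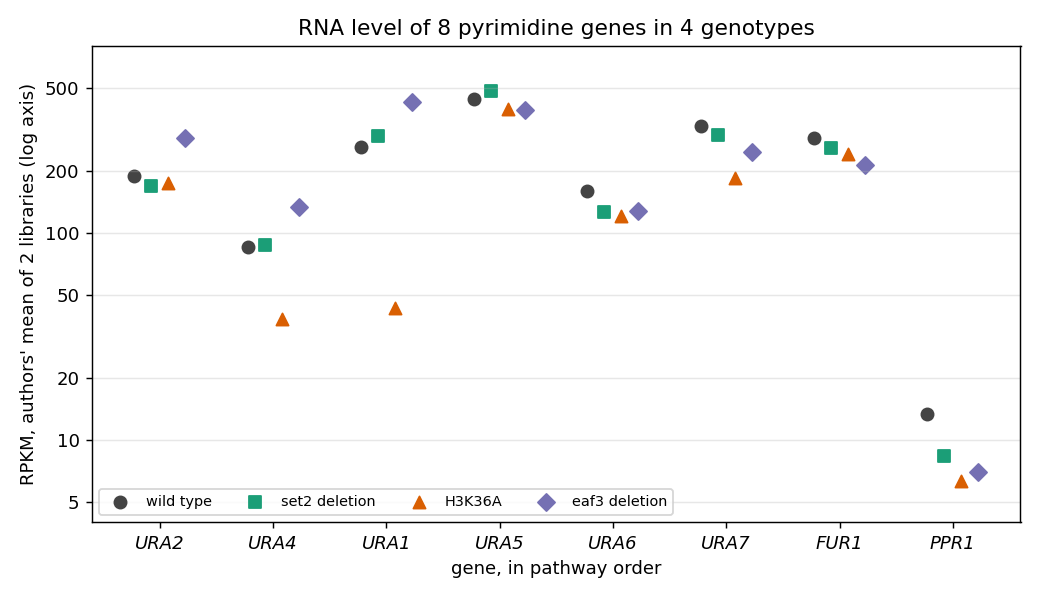
RNA level of the 8 genes in each genotype, in RPKM on a log axis, with genes in pathway order and 1 point for the authors' mean of the 2 libraries of a genotype. The points of URA1 span 43.5 to 426 and those of URA4 38.6 to 134, with H3K36A lowest and the eaf3 mutant highest in both, while those of URA5 span 393 to 487.

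The first enzyme, URA2 (YJL130C, chromosome X 165723 to 172367, coordinates of R64, the assembly that sacCer3 also names), had 188 RPKM in wild type, 169 in the set2 mutant, 175 in H3K36A and 286 in the eaf3 mutant. Its level stood apart in the eaf3 mutant alone, with a log2 ratio to wild type of 0.60 there against -0.15 in the set2 mutant and -0.11 in H3K36A. URA2 has the longest coding sequence of the 8, at 6645 bases. The quartile of longest coding length held 889 compared genes of 1869 to 14733 bases. Its median ratios were -0.35 in the set2 mutant, -0.49 in H3K36A and -0.43 in the eaf3 mutant, and URA2 lay above each. In the quartile of highest wild-type RPKM, which also holds URA2, the medians were -0.076, -0.20 and -0.23 in the same order. URA2 lay below that median in the set2 mutant and above it in H3K36A and the eaf3 mutant.

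URA4 (YLR420W, chromosome XII 963785 to 964879) had 85.1 in wild type, 87.3 in the set2 mutant, 38.6 in H3K36A and 134 in the eaf3 mutant. Wild type and the set2 mutant were nearly alike, H3K36A lay below both and the eaf3 mutant above both. Against wild type its log2 ratio came to 0.04 in the set2 mutant, -1.12 in H3K36A and 0.65 in the eaf3 mutant. The distance from wild type in H3K36A is less than 2-fold relative to the median gene, at a relative log2 of -0.80.

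URA1 (YKL216W, chromosome XI 25215 to 26159), whose enzyme in this yeast is cytosolic and reduces fumarate, had 261 in wild type, 293 in the set2 mutant, 43.5 in H3K36A and 426 in the eaf3 mutant. The order of genotypes was that of URA4, with a wider span. Against wild type the log2 ratios were 0.16, -2.56 and 0.70 in the set2 mutant, H3K36A and the eaf3 mutant. Ranked by RPKM among all 5326 genes, which no rescaling of a column alters, URA1 stood at place 426 in wild type, 400 in the set2 mutant, 1455 in H3K36A and 290 in the eaf3 mutant. Of the 3657 genes compared, 14 had a lower ratio of H3K36A to wild type than URA1, and 117 had a higher ratio of the eaf3 mutant to wild type.

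The next enzyme gene, URA5 (YML106W, chromosome XIII 56773 to 57453), encodes the major orotate phosphoribosyltransferase. It had the highest RPKM of the 8 in wild type, the set2 mutant and H3K36A, with 442, 487 and 396, and stood at 393 in the eaf3 mutant, below URA1. Its lowest and highest means differed by 0.31 on the log2 scale, the smallest range of any member. The minor form URA10 (YMR271C), known as a Ppr1 target, was scarce in every genotype, with 4.54 in wild type, 4.87 in the set2 mutant, 6.14 in H3K36A and 6.21 in the eaf3 mutant. Unlike URA1 and URA4, URA10 was thus not lower in H3K36A than in wild type. URA5 and URA10 are paralogs whose reads the authors' counting could have split.

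Ratios between genes of the same genotype are not altered by scaling of the columns. The ratio of URA1 to URA5 was 0.591 in wild type, 0.601 in the set2 mutant, 0.110 in H3K36A and 1.08 in the eaf3 mutant. URA1 thus passed URA5 in the eaf3 mutant only. The ratio of URA1 to URA4 was 3.07, 3.36 and 3.18 in wild type, the set2 mutant and the eaf3 mutant against 1.13 in H3K36A. The pair kept nearly the same proportion in all genotypes but H3K36A, where URA1 was lower by more than URA4. The ratio of URA2 to URA4 was 2.22 in wild type, 1.94 in the set2 mutant and 2.13 in the eaf3 mutant against 4.53 in H3K36A.

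**Figure D2:**
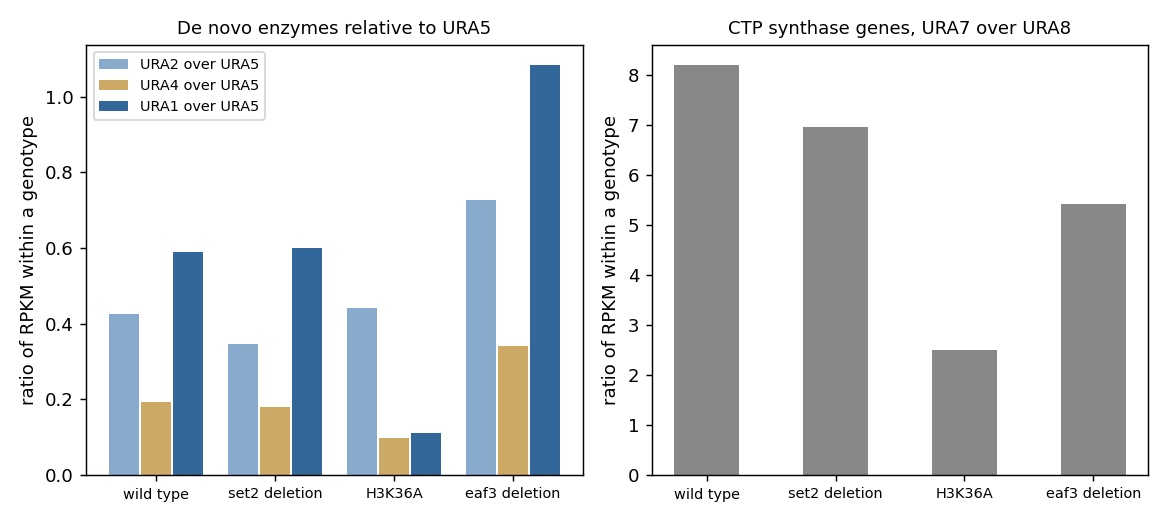
Ratios of RPKM between genes of the same genotype, from the authors' means, for URA2, URA4 and URA1 relative to URA5 (left) and for the CTP synthase genes URA7 and URA8 (right). URA1 over URA5 goes from 0.110 in H3K36A to 1.08 in the eaf3 mutant, and URA7 over URA8 from 8.20 in wild type to 2.51 in H3K36A.

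Past UMP, the uridylate kinase gene URA6 (YKL024C, chromosome XI 392526 to 393140) had 159 in wild type, 126 in the set2 mutant, 121 in H3K36A and 127 in the eaf3 mutant. The 3 mutants were close to each other and below wild type, by log2 ratios of -0.33, -0.39 and -0.32, which lie within 0.11 of the median gene of each comparison. URA7 (YBL039C, chromosome II 143989 to 145728), the major CTP synthase, had 327 in wild type, 296 in the set2 mutant, 184 in H3K36A and 245 in the eaf3 mutant. Wild type was highest and H3K36A lowest, with a log2 ratio of -0.83 (relative log2 -0.51). Its paralog URA8 (YJR103W) went the other way in H3K36A, with 39.9 in wild type, 42.6 in the set2 mutant, 73.3 in H3K36A and 45.3 in the eaf3 mutant. The ratio of URA7 to URA8 was therefore 8.20 in wild type, 6.96 in the set2 mutant, 5.41 in the eaf3 mutant and 2.51 in H3K36A. Reads from the 2 CTP synthase genes could also have been split in counting. The other kinase of this branch, YNK1, which makes nucleoside triphosphates from diphosphates, had 75.9 in wild type, 95.1 in the set2 mutant, 183 in H3K36A and 105 in the eaf3 mutant.

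FUR1 (YHR128W, chromosome VIII 362115 to 362765), the uracil phosphoribosyltransferase on which a ura3- strain relies to use uracil, had 287 in wild type, 258 in the set2 mutant, 241 in H3K36A and 212 in the eaf3 mutant. All 3 mutants were below wild type, the eaf3 mutant by the most (log2 ratio -0.44), and relative to the median gene the 3 ratios lay between -0.08 and 0.08. The balance of FUR1 against the de novo gene URA1 was 1.10 in wild type, 0.882 in the set2 mutant, 5.56 in H3K36A and 0.497 in the eaf3 mutant, which follows the change in URA1.

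The regulator gene PPR1 (YLR014C, chromosome XII 172268 to 174982) was the least abundant of the 8, with 13.3 in wild type, 8.32 in the set2 mutant, 6.36 in H3K36A and 6.98 in the eaf3 mutant. It was lower in every mutant. Its known targets URA1 and URA4 were lower than wild type in H3K36A and higher in the eaf3 mutant. Whether the level of PPR1 RNA bears on these targets was not tested. The log2 ratios of PPR1 were -0.62, -0.96 and -0.85, against medians over all 5326 genes of -0.32, -0.44 and -0.48. Without a pseudocount PPR1 was 2.10-fold lower in H3K36A, so its place at the 2-fold limit depends on that choice. After quantile normalization its log2 ratios were -0.15, -0.31 and -0.13.

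**Figure D3:**
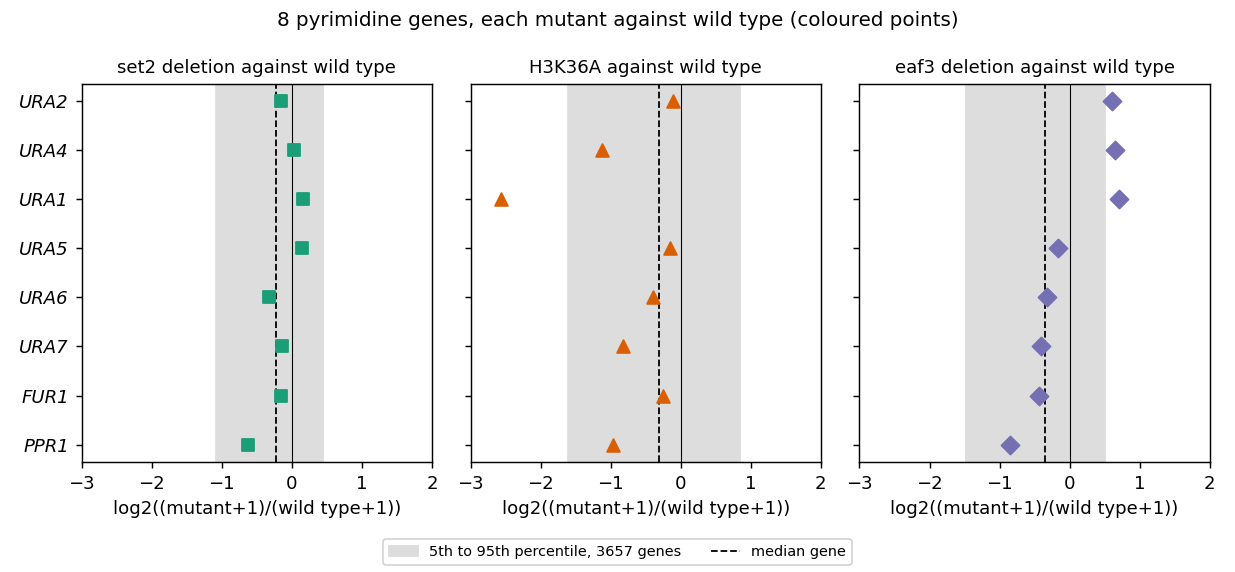
Log2 ratio to wild type of each of the 8 genes in the set2 mutant, H3K36A and the eaf3 mutant (coloured points), with a pseudocount of 1. The grey band spans the 5th to 95th percentile of the 3657 genes compared and the dashed line is their median. URA1 lies outside the band in H3K36A, at -2.56, and URA1, URA4 and URA2 lie above it in the eaf3 mutant, at 0.70, 0.65 and 0.60.

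Counted against wild type on the authors' scale, 0 of the 7 members compared were 2-fold higher or lower in the set2 mutant, where 1.26% of all genes compared were at least 2-fold higher and 6.43% lower; relative to the median gene it was again 0 of 7, against 1.83% higher and 2.90% lower. In H3K36A, 2 of 7 were at least 2-fold lower, URA1 and URA4, against 18.0% of all genes, and 0 were higher against 3.91%. Relative to the median gene 1 of 7, URA1, was lower against 9.68%, and 0 were higher against 6.95%. In the eaf3 mutant, 0 of 7 were beyond 2-fold, against 1.53% higher and 16.0% lower among all genes; relative to the median gene, URA1 and URA4 were higher, 2 of 7 against 3.55%, and 0 were lower against 7.03%. The median log2 ratio of the 7 was -0.14 in the set2 mutant, -0.39 in H3K36A and -0.17 in the eaf3 mutant, within 0.19 of the median of all genes compared in each case. All of the 7 but URA4 lay in the quartile of highest wild-type RPKM, whose medians were -0.076, -0.20 and -0.23 in the same order. The median of the 7 was below these in the set2 mutant and H3K36A and above in the eaf3 mutant. Members lay on both sides of wild type in 2 of the mutants: in the set2 and eaf3 mutants 3 exceeded wild type and 4 did not, and in H3K36A all 7 were lower. After quantile normalization the medians in H3K36A were -0.31 for the members and 0.03 for all genes. They were -0.088 and 0.05 in the set2 mutant and -0.052 and 0.06 in the eaf3 mutant. The members thus lay below all genes in each mutant on that scale. With centring alone they lay above the median gene in the set2 mutant (0.083) and the eaf3 mutant (0.19), so their position depends on the method. The 3 comparisons use the same wild-type mean, so an error in it enters all of them. The summed MATa-specific RPKM was also lowest in the eaf3 mutant, and HIS3 highest in H3K36A; their part in the values of the pyrimidine genes was not tested.

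The mutants were also set against each other, which leaves the wild-type mean out. In H3K36A, 2 of 7 members were at least 2-fold below the set2 mutant, URA1 (log2 ratio -2.73) and URA4 (-1.16), against 1.31% of all genes compared; 0 were higher, against 2.32%, and 2 genes of the 3657 had a lower ratio than URA1. In the eaf3 mutant, the same 2 genes were at least 2-fold above H3K36A, by 3.27 and 1.77 on the log2 scale, against 0.793% of all genes, and 0 were lower against 3.04%. URA1 was 9.82-fold and URA4 3.48-fold higher there, and 4 genes had a higher ratio than URA1. Between the eaf3 and set2 mutants, 0 of 7 were beyond 2-fold, against 0.383% higher and 1.31% lower. In that comparison URA2 had the highest ratio of the members, 0.75, followed by URA4 at 0.61 and URA1 at 0.54, and the remaining 4 lay between -0.31 and 0.01.

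The other genes of pyrimidine metabolism came from lists by role, written with earlier results of these data known. Of 34 such genes, 33 had a row and 28 were compared. In the set2 mutant 2 of 28 were at least 2-fold higher and 0 lower, in H3K36A 3 higher and 2 lower, and in the eaf3 mutant 3 higher and 1 lower, beside the same shares of all genes as above. Relative to the median gene, 3, 6 and 3 were higher and 0 were lower in any mutant. The shares of all genes higher on that scale were 1.83%, 6.95% and 3.55%. Those higher in all 3 mutants on that scale were the permease genes FUR4, FUI1 and FCY21. FUR4, with 6.79 in wild type, passed the minimum mean only through its values in the mutants. Its part in these counts was therefore favoured by the filter and is no support for a rise.

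Of the uptake genes, FUR4, FUI1 and FCY21 had higher values in each mutant than in wild type. FUR4 (YBR021W), the uracil permease, had 6.79 in wild type, 13.0 in the set2 mutant, 13.3 in H3K36A and 19.7 in the eaf3 mutant. FUI1 (YBL042C), the uridine permease, had 28.1, 60.6, 50.1 and 104 in the same order. The eaf3 mutant was highest and wild type lowest in both, with log2 ratios to wild type of 0.84, 0.87 and 1.41 for FUR4 and of 1.08, 0.81 and 1.85 for FUI1. FUR4 had under 10 in wild type and was compared because of its values in the mutants. FCY21, of the purine-cytosine permease family, had 17.0 in wild type, 49.8 in the set2 mutant, 42.2 in H3K36A and 53.5 in the eaf3 mutant. Its neighbour FCY22, a similar copy that can share reads and had a mean under 10, had 5.43, 8.97, 11.9 and 8.96. The main purine-cytosine permease gene FCY2 did not share this, with 327, 296, 318 and 246. Beside the permeases, the ratio of FUR1 to FUR4 was 42.2 in wild type, 19.9 in the set2 mutant, 18.2 in H3K36A and 10.7 in the eaf3 mutant. These differences come mostly from FUR4, which is low in wild type, so the ratio is no separate support for a rise in FUR4.

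Within salvage, URK1, the uridine and cytidine kinase, had 37.2 in wild type, 24.9 in the set2 mutant, 16.6 in H3K36A and 20.0 in the eaf3 mutant, and was at least 2-fold lower in H3K36A (log2 ratio -1.12; relative log2 -0.80). The deaminase and nucleosidase genes FCY1, CDD1 and URH1 and the nucleotidase gene SDT1 were within 2-fold of wild type in each mutant. PHM8, another nucleotidase gene with a mean under 10, had 10.4 in wild type and 4.77 to 5.70 in the mutants.

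Upstream of the pathway, CPA1, which serves carbamoyl phosphate synthesis for arginine, had 146 in wild type, 75.7 in the set2 mutant, 112 in H3K36A and 65.3 in the eaf3 mutant. It was at least 2-fold lower in the eaf3 mutant (log2 ratio -1.14, relative log2 -0.79) and nearly as low in the set2 mutant (log2 ratio -0.93). URA2, whose product makes the same intermediate for pyrimidines, was highest in the eaf3 mutant (286) and lowest in the set2 mutant (169). A link between CPA1 and URA2 was not tested. The 5 genes of PRPP synthetase, PRS1 to PRS5, which supplies the ribose phosphate used by Ura5 and Fur1, had log2 ratios between -0.60 and 0.14 over the 3 mutants.

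Among the genes of deoxypyrimidine nucleotides, 0 of 6 compared were beyond 2-fold in any mutant, beside 18.0% lower and 3.91% higher among all genes in H3K36A. Over all 8 with a row, 1 was lower in the set2 mutant, and 1 higher and 1 lower in H3K36A. With the minimum of 1, 11.4% of all genes were lower in the set2 mutant. In H3K36A 3.15% were higher and 23.5% lower. CDC21, thymidylate synthase, whose mean fell under 10 through its values in the mutants, had 15.3 in wild type, 6.70 in the set2 mutant, 7.12 in H3K36A and 7.17 in the eaf3 mutant. RNR3, the minor large subunit of ribonucleotide reductase, was at 2.36, 2.23, 7.06 and 3.48, while the major subunit gene RNR1 went from 296 in wild type to 340 in the eaf3 mutant. Of the genes whose enzymes use UTP or CTP, UGP1, which makes UDP-glucose, had 142 in wild type, 168 in the set2 mutant, 398 in H3K36A and 181 in the eaf3 mutant, a log2 ratio of 1.48 in H3K36A. PCT1, which uses CTP to make CDP-choline, had 21.6 in wild type and 9.60 in H3K36A (log2 ratio -1.09; relative log2 -0.78).

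**Figure D4:**
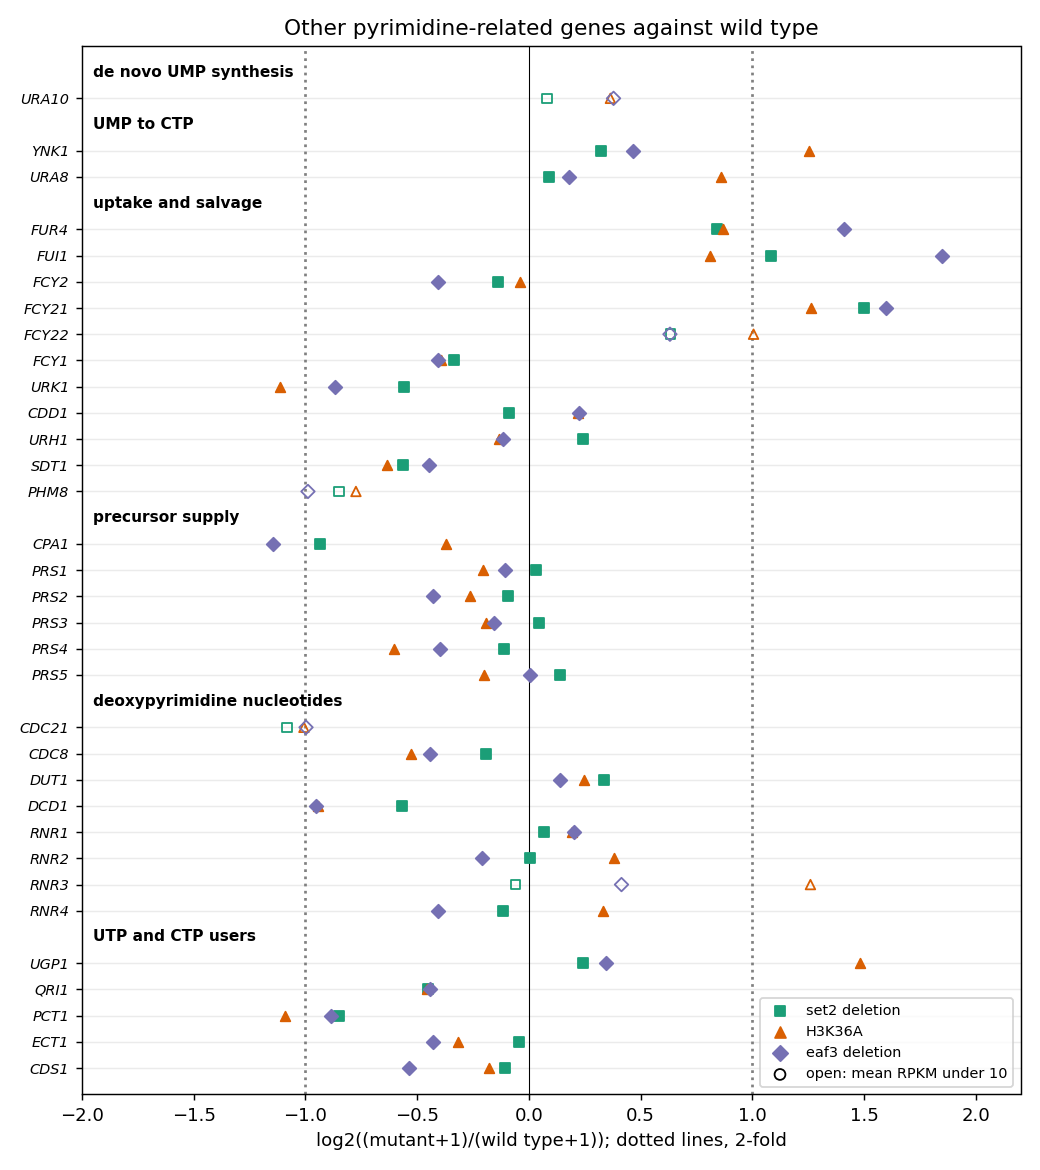
Log2 ratio to wild type of the 33 other pyrimidine-related genes with a row, by role, in the set2 mutant, H3K36A and the eaf3 mutant; open symbols mark genes with a mean RPKM under 10 and dotted lines mark 2-fold. The 3 permease genes FUR4, FUI1 and FCY21 lie between 0.81 and 1.85 in all mutants, and YNK1 and UGP1 pass 2-fold in H3K36A, at 1.26 and 1.48.

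For the 3 members with the widest range over the genotypes, the genes with the most similar pattern were found by the Euclidean distance between profiles of log2(RPKM + 1) over the 4 genotype means, each centred on its own mean. With 4 points per gene the measure is a description. The 3 nearest to URA1 were MDH2, the cytosolic malate dehydrogenase gene (53.3 in wild type, 66.0 in the set2 mutant, 13.2 in H3K36A and 97.5 in the eaf3 mutant; distance 0.47), then PHM6 (0.87) and FIT2 (0.88), a cell wall protein of siderophore iron uptake. URA4 came at place 9, at 1.30, while in the order of distances from URA4 itself URA1 came at place 1311, URA2 at 60 and URA7 at 105. The 3 nearest to URA4 were HXT1, a low-affinity glucose transporter (289, 230, 128 and 342; distance 0.37), CAR1, arginase (0.55), and RIB4, of riboflavin synthesis (0.57). For PPR1, highest in wild type and lowest in H3K36A, the nearest were FAR8, EFM1 and MRP13 at 0.03 to 0.04. The profiles were not scaled, and the log2 range over genotypes was 0.96 for PPR1 and 3.27 for URA1. Their distances therefore do not compare how closely each pattern was matched.

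None of the 8 coding sequences overlaps another gene in the RefSeq table. The genes beside URA1 did not share its pattern. JEN1 on its left, under 10 in every genotype, had 8.17 in wild type, 8.61 in the set2 mutant, 6.58 in H3K36A and 2.88 in the eaf3 mutant. OXP1 on its right had 14.1, 10.7, 12.3 and 10.3. RPN13, a proteasome gene that ends 210 bases from the end of URA4, had 74.8, 45.5, 36.9 and 38.8, thus lower in H3K36A like URA4, but lower in the eaf3 mutant where URA4 was higher. TRK1 beside URA2 had 26.0, 21.8, 15.7 and 16.8, also lower in the eaf3 mutant. BRE2, 244 bases from PPR1, had 10.1, 5.46, 3.27 and 4.12, with the genotypes in the same order as for PPR1. MIN9 lies 5 bases from URA6 on the same strand and had 133, 99.4, 83.1 and 93.5, in the range of URA6, and reads of the 2 genes may not have been separated.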

How the data were processed

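Per the labels' protocols, 8 RNA libraries of hot-phenol total RNA were made with a stranded rRNA-depletion kit. CASAVA, TopHat2 2.0.14 and sacCer3 are named in the submitters' processing notes. The deposited values are RPKM, averaged by the authors over the libraries of a genotype per the file headers; the labels do not state the RPKM tool, the gene models, whether strand was used or how shared reads were treated. No value lies under 1.00, so genes that fall below it in some genotype are missing. The 9 ChIP and input libraries were not analysed here.

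Of 5328 rows, 2 named R (0.00317% of the wild-type RPKM) were dropped; 3 further lines had been emptied for this work. Names and coordinates came from a RefSeq table of R64, which 5128 IDs matched by systematic name. Ratios were log2((mutant + 1)/(wild type + 1)), counted beyond 2-fold over genes whose mean RPKM reached 10, with Python 3.11.15 and pandas 2.3.3; the steps were tested on simulated data. A ratio with a pseudocount understates the change of low genes. The planned limma fit needed a column per library and was not possible. Members, lists and comparisons were chosen with earlier results of these data known. Named genes were the 8 members, list genes beyond 2-fold in any mutant, the paralogs URA8 and URA10, FUR4, and the 3 nearest patterns of the 3 widest members; other named list genes and the chromosomal neighbours were chosen after their values were seen. 1 planned list gene is not reported here. The alternatives tried were other pseudocounts (0.1 and 5), a lower limit of 1 on mean RPKM, centring on the median gene, quantile normalization, and removal of small RNA genes with rescaling.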

Additional observations from a re-analysis of the deposited data

How the results depend on the processing

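No paired analysis was possible because the table holds 1 mean per genotype, and for the same reason no library could be left out. Members beyond 2-fold in H3K36A numbered 2, and 1 after centring on the median gene, after quantile normalization and without small RNA genes, where 9.68%, 8.22% and 15.6% of all genes were at least 2-fold lower; URA1 passed under all 6 alternatives and URA4 under 3. In the eaf3 mutant the number was 0, and 2 after centring, where 3.55% of all genes were higher. In the set2 mutant it was 0 throughout. The median log2 ratio of the members in the set2 mutant, H3K36A and the eaf3 mutant was -0.14, -0.40 and -0.17 with a pseudocount of 0.1, and -0.14, -0.38 and -0.17 with 5. It was -0.15, -0.61 and -0.24 with a minimum mean RPKM of 1, which adds PPR1, and 0.083, -0.078 and 0.19 after centring. It was -0.088, -0.31 and -0.052 after quantile normalization, and -0.061, -0.47 and -0.14 without small RNA genes, where PPR1 also passed the minimum. The medians of all genes in H3K36A were -0.44, 0.03 and -0.23 with the minimum of 1, after quantile normalization and without small RNA genes. Centring, which shifts all ratios of a comparison alike, turned the sign of 8 of the 24 member ratios, all within 2-fold; that of URA2 in H3K36A also turned without small RNA genes. The ratios of URA1 and URA4 kept their direction under all 6 alternatives. The share of small RNA genes in the RPKM sum was 22.7% for wild type, 27.1% for the set2 mutant, 29.9% for H3K36A and 28.2% for the eaf3 mutant. The depth behind the means is unknown, so the counting error of low genes such as PPR1, URA10 and FUR4 cannot be given.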
